A study of Mus musculus with 8 samples.

Results

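Glycolysis and hypoxia response genes were followed as a set of 34 genes: 16 glycolytic enzymes, 4 glucose and lactate transporters, 13 genes known to be induced by low oxygen, and Hif1a. The genes were chosen by name, and their probe sets (the groups of short probes that measure a transcript on an Affymetrix array) were those annotated to that gene alone. In all, 31 of the 34 genes had such a probe set on at least 1 platform, out of 18336 genes so measured, and 30 had a probe set above the filter on low signals. RNA came from pools of mouse embryos at embryonic day 7.5, between the mid-streak and head-fold stages, without the extra-embryonic region and of mixed sex. The wild-type pools held 53 and 50 ICR embryos from timed matings. The Foxa2 null pools held 53 and 48 embryos grown from Foxa2 null embryonic stem cells by tetraploid complementation, in which a wild-type, GFP-marked tetraploid host builds the extra-embryonic tissues and the visceral endoderm that stays on the epiblast. The labels of the mutant arrays give ICR on MOE430v2 and no strain on U74Av2, and origin of the embryo and genotype cannot be told apart. Each of the 4 extracts was hybridized to a U74Av2 and to a MOE430v2 array, so that 8 arrays measured 2 pools per genotype. Wild-type pool 2 held a smaller share of head-fold embryos than the other pools.

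Glycolysis splits glucose into pyruvate in the cytosol, and lactate dehydrogenase turns pyruvate into lactate when it is not passed on to mitochondria. When oxygen is low, hypoxia-inducible factor 1 (Hif1a with its partner Arnt) escapes breakdown and activates genes for glucose uptake, for glycolytic enzymes and for holding pyruvate back from mitochondria. Epiblast cells before and during gastrulation are known for a high use of glycolysis.

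Hypoxia-inducible factor 1 binds a short core, A or G followed by CGTG, so the promoters of the members were searched for the words ACGTG and GCGTG on both strands. RefSeq windows from 250 bases before to 50 bases after the start site (GRCm38.p6) were at hand for 31 members. Of these, 29 (93.5%) held at least 1 match in at least 1 of their windows, against 46.7% of all 27025 genes of the table. A gene can have several windows, and by window the shares were 81.6% of 49 and 43.8% of 32851. The member windows also had a higher median GC content, 63.3% against 52.7% for all windows, and the part of base composition in this share was not tested. The forkhead words TGTTTAC and TATTTAC, searched because Foxa2 is a forkhead factor, were found for 2 of the 31 (6.45%) and for 7.35% of all genes. The windows shown are those of the 5 members with an unadjusted p under 0.05 on the arrays, with both hypoxia words and their reverse complements in capitals, 5′ to 3′ on the strand of the gene. None of the 5 windows held either forkhead word.
Pdk1 (chr2:71872974-71873273, + strand): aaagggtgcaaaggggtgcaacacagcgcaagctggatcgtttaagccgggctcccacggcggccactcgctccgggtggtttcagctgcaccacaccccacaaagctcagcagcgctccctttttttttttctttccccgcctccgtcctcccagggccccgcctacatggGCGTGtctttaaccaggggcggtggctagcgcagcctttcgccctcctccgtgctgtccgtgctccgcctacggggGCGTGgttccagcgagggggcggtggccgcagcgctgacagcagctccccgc
Pfkp (chr13:6648722-6649021, - strand): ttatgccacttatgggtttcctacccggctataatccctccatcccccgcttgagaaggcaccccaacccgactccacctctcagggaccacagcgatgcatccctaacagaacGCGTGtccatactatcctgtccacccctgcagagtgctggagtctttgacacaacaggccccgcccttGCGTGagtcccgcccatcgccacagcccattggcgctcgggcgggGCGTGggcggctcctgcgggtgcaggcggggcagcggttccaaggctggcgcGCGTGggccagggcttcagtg
P4ha2 (chr11:54100674-54100973, + strand): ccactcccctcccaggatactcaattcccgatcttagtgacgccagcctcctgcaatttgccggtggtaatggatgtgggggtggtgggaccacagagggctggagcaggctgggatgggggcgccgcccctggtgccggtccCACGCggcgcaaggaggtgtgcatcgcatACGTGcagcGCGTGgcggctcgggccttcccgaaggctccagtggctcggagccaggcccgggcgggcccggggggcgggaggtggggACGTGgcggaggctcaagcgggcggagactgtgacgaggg
Bnip3 (chr7:138909457-138909756, - strand): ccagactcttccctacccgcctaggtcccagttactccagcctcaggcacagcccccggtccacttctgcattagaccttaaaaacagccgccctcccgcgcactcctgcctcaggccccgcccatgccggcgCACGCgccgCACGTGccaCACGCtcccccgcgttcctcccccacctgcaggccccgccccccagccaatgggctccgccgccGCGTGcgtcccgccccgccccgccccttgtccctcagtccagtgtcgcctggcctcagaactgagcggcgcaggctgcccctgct
Slc2a1 (chr4:119108495-119108794, + strand): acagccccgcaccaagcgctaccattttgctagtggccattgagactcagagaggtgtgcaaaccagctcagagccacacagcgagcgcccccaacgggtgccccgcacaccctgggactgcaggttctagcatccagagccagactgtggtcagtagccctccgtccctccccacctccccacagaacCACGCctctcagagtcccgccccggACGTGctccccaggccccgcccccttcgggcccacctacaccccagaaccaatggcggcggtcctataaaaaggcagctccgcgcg
Pdk1 had 2 matches in the window shown and 0 in the window of its other start site. Pfkp and P4ha2 had 4 matches each, Slc2a1 2 and Bnip3 5, where the palindrome CACGTG counts on either strand. Windows of members not shown held from 0 matches, as for Tpi1, to 7, for Ldha. A match is a word in the sequence and was not tested as a binding site.

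Before the members, the targeted gene was read in every pool. Foxa2 had a log2 signal of 7.37 and 8.08 in wild-type and 6.39 and 6.55 in Foxa2 null pools on U74Av2, and of 9.61 and 10.17 against 8.96 and 9.06 on MOE430v2. The pools did not overlap on either platform, and with both arrays of an extract averaged Foxa2 fell by 1.07 on the log2 scale (SE 0.20, adjusted p = 0.0309 by limma). Without wild-type pool 2 the difference was -0.75 and the call was lost (adjusted p = 0.101). Whether these probe sets lie in the deleted part of the gene is not given in the sources used here. The ratio of 3′ to 5′ signal, a sign of RNA integrity, lay between 0.789 and 0.940 for Gapdh and between 1.11 and 1.29 for Actb over the 8 arrays. Of 12 epiblast markers, the tissue named in the labels, 8 on U74Av2 and 11 on MOE430v2 were above the filter, with Pou5f1 between 10.45 and 10.88 on U74Av2 and between 11.95 and 12.38 on MOE430v2. Of the 20 visceral endoderm markers, 16 on U74Av2 and 18 on MOE430v2 were above the filter and 0 were listed at a signal of 0. On U74Av2 their signals summed to 11804 and 12057 for wild-type, and to 15739 and 11465 for Foxa2 null pools 1 and 2. On MOE430v2 the sums were 87816 and 91516, and 117198 and 90792. The sum, which the most abundant genes dominate, was highest in Foxa2 null pool 1 on both platforms, while that of Foxa2 null pool 2 lay below both wild-type pools on U74Av2 and between them on MOE430v2. Gene by gene, 8 of the 16 markers tested on both platforms were higher in both Foxa2 null pools without overlap and 0 were lower, beside 22.2% and 23.5% of all genes. Apob read 9.68 and 9.43 in wild-type against 10.38 and 10.03, and Mttp 7.75 and 7.54 against 8.42 and 8.26, averaged over platforms. In bulk RNA, fewer cells of a type and less RNA per cell cannot be told apart.

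For most members the difference between genotypes was small, and 2 genes of different roles rose: Pdk1, a brake on the entry of pyruvate into mitochondria, by 1.91-fold, and Pfkp, a subunit of phosphofructokinase, by 2.04-fold. P4ha2 and Bnip3 stood higher, at 0.59 and 0.40 on the log2 scale, and the glucose transporter Slc2a1 lower, at -0.30, with an unadjusted p under 0.05 that did not pass after adjustment. For the 26 members tested on both platforms, the log2 values of each extract were averaged over its arrays, giving 2 values per genotype. By limma with Benjamini-Hochberg adjustment over all 5933 genes, 2 of the 26 were higher in Foxa2 null pools at an adjusted p under 0.05, where 1.35% of all genes were, and 0 were lower, where 1.06% were. At an unadjusted p under 0.05, 4 members were higher and 1 was lower (7.43% and 7.84% of all genes). The median difference over the 26 was 0.02 on the log2 scale, beside -0.0096 over all genes tested. Within 1.25-fold lay 21 of 26 members and 77.6% of all genes, and 3 members reached 1.5-fold, as did 7.13% of all genes. Foxa2 null pools lay entirely below the wild-type pools for 6 members and entirely above for 5, beside 23.5% and 22.2% of all genes. The shares of members without overlap and within the tighter fold were near those of all genes tested. The other shares rest on 4 members or fewer.

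**Figure D1:**
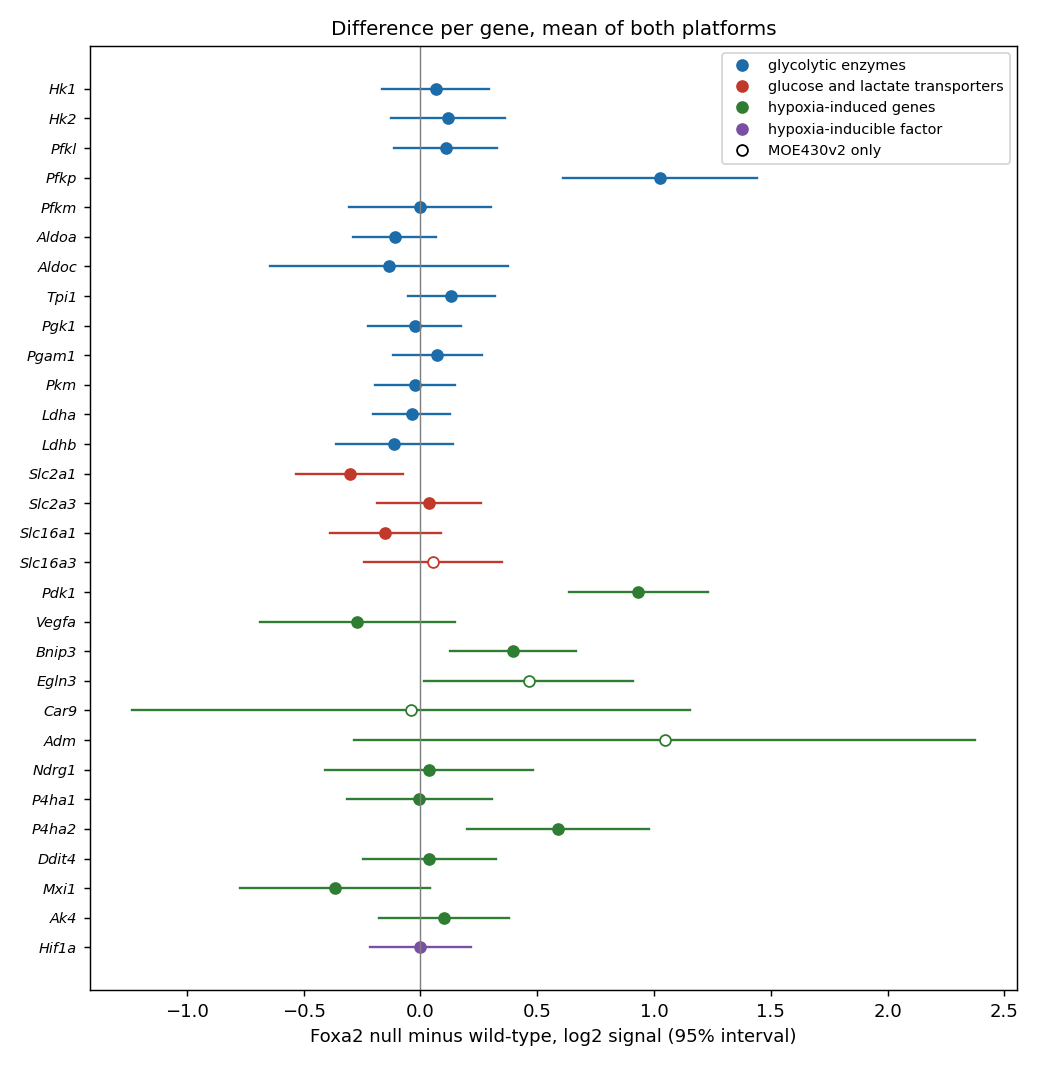
Difference in log2 signal between Foxa2 null and wild-type pools for each member (dot) with its 95% interval from limma (line), coloured by role, with n = 2 pools per genotype. Filled dots are means over both platforms, and the open dots Slc16a3, Egln3, Car9 and Adm are MOE430v2 alone; Pfkp at 1.03 and Pdk1 at 0.93 stand apart from a column of enzymes near 0.

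On U74Av2 alone, 0 of 34 member probe sets passed the threshold in either direction, where 0.104% of all probe sets were called higher and 0.173% lower. At an unadjusted p under 0.05, 6 were higher and 1 was lower, beside 5.01% of all probe sets in each direction. On MOE430v2, 1 of 67 member probe sets was called higher, where 0.19% of all were, and 0 were lower, where 0.244% were. Here 10 were higher and 5 lower at an unadjusted p under 0.05, beside 6.04% and 6.07%. Several of these probe sets measure the same gene, and the arrays of both platforms measured the same extracts, so they are not independent. Fits without an intensity trend in the variance called 0 members on either platform or averaged.

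Averaged over platforms, the wild-type pools lay closer together for the members than for all genes, and the Foxa2 null pools did not. The median distance between the wild-type pools was 0.12 on the log2 scale for the members and 0.16 for all genes, averaged over platforms, and between the Foxa2 null pools it was 0.16 for both. Ndrg1 differed most between the wild-type pools, by 0.41, and Aldoc most between the Foxa2 null pools, by 0.44. On each platform by itself the Foxa2 null pools also lay closer for the members than for all genes. Their median distances were 0.14 against 0.23 on U74Av2 and 0.16 against 0.21 on MOE430v2. The part of signal level in these distances was not tested.

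The glycolytic enzymes form the largest group, with 16 members, of which 13 were tested on both platforms. Their median difference was -0.0018 on the log2 scale, 12 of the 13 lay within 1.25-fold, and Pfkp alone was called. The first step, phosphorylation of glucose, is carried out by the hexokinases. Hk1, the form found in most tissues, had averaged log2 signals of 10.66 and 10.75 in wild-type and 10.74 and 10.80 in Foxa2 null pools, a difference of 0.07 (95% interval -0.16 to 0.30). Hk2, the inducible form, read 9.77 and 9.29 against 9.48 and 9.35 on U74Av2, a difference of -0.11. On MOE430v2 it read 11.46 and 11.85 against 12.13 and 11.88, a difference of 0.35 (SE 0.15, adjusted p = 0.393 by limma). The Hk2 pools overlapped on U74Av2 and were narrowly apart on MOE430v2, and the averaged difference was 0.12 (95% interval -0.13 to 0.36).

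Phosphofructokinase commits glucose to glycolysis and is built from 3 kinds of subunit, named for liver (Pfkl), muscle (Pfkm) and platelet (Pfkp). Pfkp had a log2 signal of 5.71 and 5.45 in wild-type and 6.66 and 6.43 in Foxa2 null pools at the stronger U74Av2 probe set, and of 9.32 and 9.00 against 10.46 and 10.04 at the strongest on MOE430v2. Both Foxa2 null pools were above both wild-type pools on either platform, with a gap larger than the distance between pools of a genotype. Pfkp rose by 1.03 on the log2 scale averaged over platforms (2.04-fold, SE 0.19, 95% interval 0.61 to 1.44, adjusted p = 0.0267 by limma). All 5 of its probe sets were higher in Foxa2 null pools without overlap, by 0.96 and 1.61 on U74Av2 and by 0.56, 1.03 and 1.09 on MOE430v2, though no probe set passed the threshold by itself. The call was lost without wild-type pool 2 (difference 0.88, adjusted p = 0.0776), with median centring (1.06, adjusted p = 0.0636) and without the intensity trend (adjusted p = 0.157).

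The other subunits were not called. Pfkl read 12.16 and 12.29 in wild-type and 12.24 and 12.42 in Foxa2 null pools, averaged over platforms, and Pfkm read 8.79 and 8.95 against 8.81 and 8.93. Both sets of pools overlapped, and the differences were 0.11 (95% interval -0.11 to 0.33) and -0.0018 (95% interval -0.31 to 0.30). The weaker MOE430v2 probe sets of Pfkl stood at 0.26 and 0.35, higher in both Foxa2 null pools without overlap. Neither passed the threshold (adjusted p = 0.370 and 0.661 by limma). The averaged difference of Pfkp exceeded that of Pfkl by 0.92 and that of Pfkm by 1.03 on the log2 scale. This is a description, since Pfkp was singled out by its call.

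No enzyme of the middle and lower steps passed the test averaged over platforms. Aldoa and Aldoc, which cleave fructose 1,6-bisphosphate, differed by -0.11 and -0.13, and Tpi1, which interconverts the resulting triose phosphates, by 0.13. Pgk1 and Pkm, the enzymes that make ATP, differed by -0.02 each, and the mutase Pgam1 by 0.07. Ldha, the main lactate dehydrogenase subunit of glycolytic cells, read 14.10 and 14.08 in wild-type and 14.03 and 14.08 in Foxa2 null pools, averaged over platforms. Its pools overlapped, and the 95% interval of its difference ran from -0.20 to 0.13. Ldhb, the subunit of more oxidative tissues, differed by -0.11 averaged and by -0.21 at its strongest MOE430v2 probe set (11.84 and 12.11 against 11.77 and 11.76). Its 4 MOE430v2 probe sets lay between -0.29 and -0.19, none past the threshold, whereas on U74Av2 it stood at -0.0087.

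Probe sets of the same enzyme did not always give the same figure. Those of Aldoa ranged from -0.18 to 0.10 on U74Av2 and from -0.05 to 0.28 on MOE430v2, and those of Pgk1 from 0.06 to 0.41 on MOE430v2, with 1 at -0.11 on U74Av2. Gapdh, which makes the first high-energy intermediate, had no probe set of its own on either array apart from controls, since the others naming it also name pseudogenes. These shared probe sets lay at -0.11 and -0.02 on U74Av2 and at -0.0065, 0.11 and 0.53 on MOE430v2, and the control probe sets for Gapdh lay between -0.13 and -0.09 on U74Av2 and between 0.03 and 0.06 on MOE430v2. Gpi1 and Eno1, which isomerize glucose 6-phosphate and form phosphoenolpyruvate, were not paired with a probe set in the annotation used and are not analysed here.

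**Figure D2:**
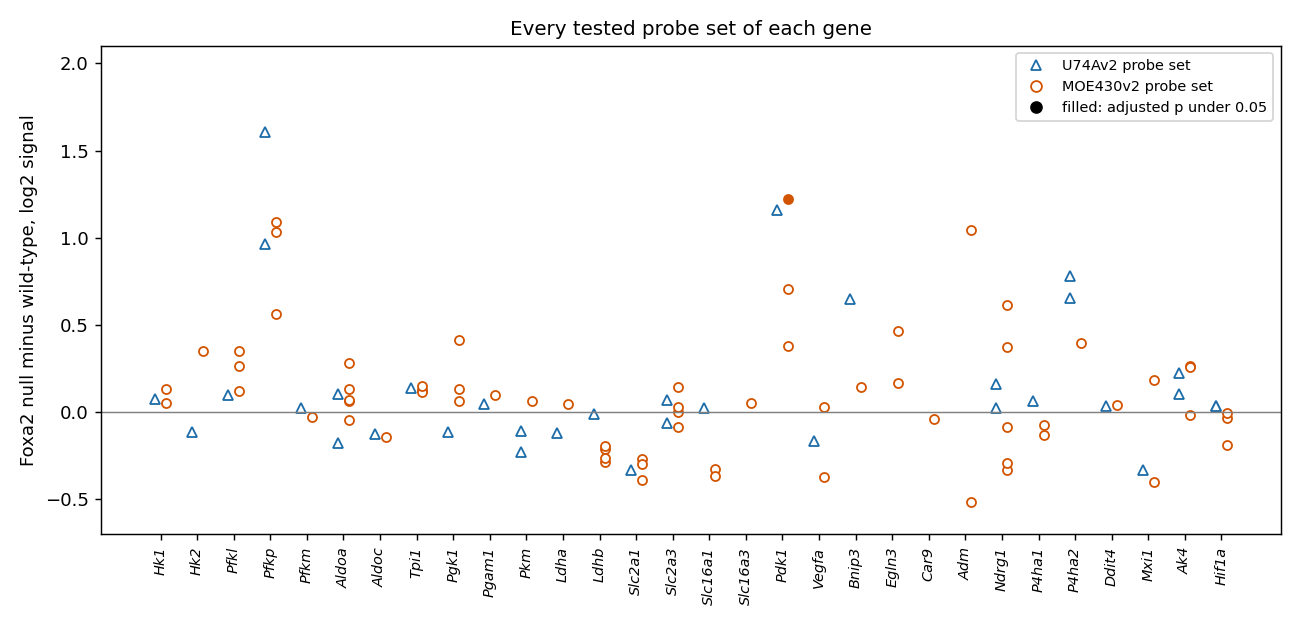
Difference in log2 signal between Foxa2 null and wild-type pools (y axis) at each of the 101 tested member probe sets, by gene (x axis), for U74Av2 (triangles) and MOE430v2 (circles). The 1 filled symbol passed an adjusted p under 0.05 and is a Pdk1 probe set at 1.22. All tested probe sets of Pfkp, Pdk1 and P4ha2 lie above 0 and all of Slc2a1 below it. Members with smaller differences also keep 1 side, such as Hk1, Pfkl and Tpi1 above 0 and Ldhb below it.

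Among the transporters, Slc2a1 (Glut1), the main route of glucose entry in embryonic cells, had the averaged difference farthest from 0. Its log2 signal was 11.21 and 11.10 in wild-type and 11.00 and 10.64 in Foxa2 null pools on U74Av2, and 14.53 and 14.40 against 14.27 and 14.12 at the strongest MOE430v2 probe set. The Foxa2 null pools were the lower ones on both platforms without overlap, although the gap between the nearest pools was narrower than the distance between the Foxa2 null pools. The averaged difference was -0.30 (95% interval -0.53 to -0.07), which did not pass the threshold (adjusted p = 0.182 by limma). All 4 probe sets lay on the same side, at -0.33 on U74Av2 and at -0.27, -0.30 and -0.39 on MOE430v2. Without Foxa2 null pool 1 the difference was -0.43 with an adjusted p of 0.0369, and without Foxa2 null pool 2 it was -0.18 with an adjusted p of 0.564.

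Slc2a3 (Glut3), a transporter of high affinity for glucose, showed no difference beyond the spread between pools, with 13.37 and 13.33 in wild-type against 13.52 and 13.24 in Foxa2 null pools, averaged over platforms, and a difference of 0.04 (95% interval -0.19 to 0.26). The monocarboxylate carrier Slc16a1, which moves lactate and pyruvate across the membrane, gave different readings on the platforms. On U74Av2 it read 7.92 and 7.94 against 7.99 and 7.92, and on MOE430v2 13.95 and 13.96 against 13.77 and 13.48. The MOE430v2 difference of -0.33 (SE 0.10, adjusted p = 0.246 by limma) had no counterpart on U74Av2, where the difference was 0.03. Slc16a3, a lactate exporter of strongly glycolytic cells, is measured on MOE430v2 only, at 12.43 and 12.79 against 12.57 and 12.76, with overlapping pools and a difference of 0.05 (95% interval -0.24 to 0.35).

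The hypoxia-induced genes did not move together. Of 13 members, 9 were tested on both platforms, with a median difference of 0.04 on the log2 scale and single genes between -0.36 and 0.93, and Pdk1 was the only member called. Pdk1 is a kinase that switches off pyruvate dehydrogenase and so keeps pyruvate out of the tricarboxylic acid cycle. Its log2 signal was 7.19 and 6.92 in wild-type and 8.28 and 8.14 in Foxa2 null pools on U74Av2, and 9.87 and 9.79 against 10.50 and 10.57 at the strongest MOE430v2 probe set. Both Foxa2 null pools were high and close to each other on either platform. Pdk1 rose by 0.93 averaged over platforms (1.91-fold, SE 0.13, 95% interval 0.63 to 1.23, adjusted p = 0.0119 by limma).

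By platform, Pdk1 was at 1.16 on U74Av2 (adjusted p = 0.0613) and at 0.71 at the strongest MOE430v2 probe set (adjusted p = 0.0778). Another MOE430v2 probe set read 9.52 and 9.60 against 10.68 and 10.89, and there Pdk1 rose by 1.22 (2.33-fold, SE 0.15, adjusted p = 0.0144), the only member probe set past the threshold. The 2 remaining probe sets were lower in signal, 1 at 0.38 and 1 below the filter at -1.13, where the wild-type pools read 6.38 and 5.10 and the Foxa2 null pools 5.57 and 3.64. The averaged call held with each pool left out in turn (adjusted p 0.00122 to 0.0429) and was lost without the intensity trend (adjusted p = 0.146). The MOE430v2 call was lost when either wild-type pool was left out. Visceral endoderm markers, given above, were also higher in the Foxa2 null pools for part of the list, and their part in the rises of Pdk1 and Pfkp was not tested.

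**Figure D3:**
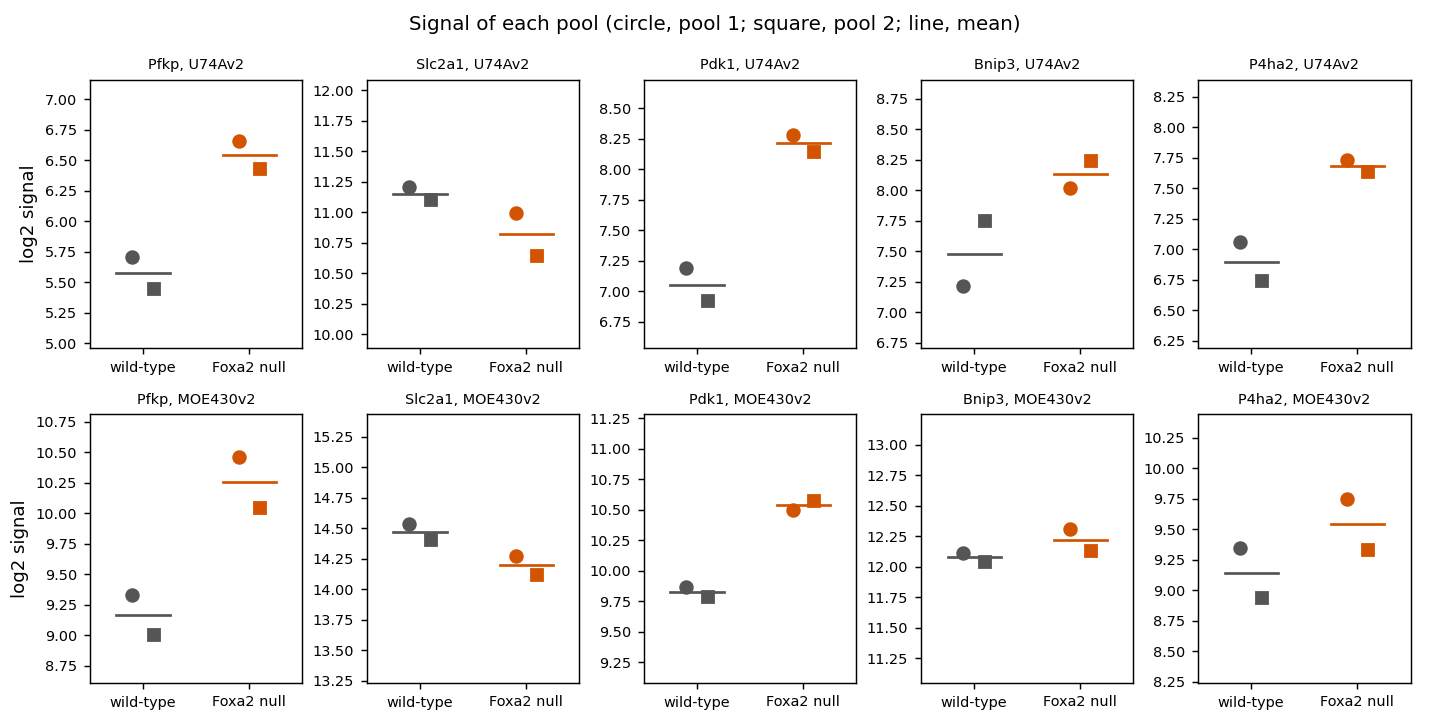
Log2 signal (y axis) of each pool at the strongest probe set per platform for the 5 members with an unadjusted p under 0.05 averaged over platforms; circles are pool 1, squares pool 2 and lines the mean of 2 pools, and every panel spans the same range of log2 units around its own centre. The Foxa2 null pools stand clear of the wild-type pools for Pfkp and Pdk1, whereas P4ha2 overlaps on MOE430v2.

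P4ha2, a subunit of the prolyl hydroxylase that matures collagen, read 7.06 and 6.74 in wild-type against 7.73 and 7.63 in Foxa2 null pools on U74Av2, and 9.35 and 8.94 against 9.74 and 9.33 on MOE430v2. The pools were apart on U74Av2 and overlapped on MOE430v2. The averaged difference was 0.59 (95% interval 0.20 to 0.98, adjusted p = 0.126 by limma), and without Foxa2 null pool 2 it was 0.72 with an adjusted p of 0.0433. Without wild-type pool 2 it was 0.41 (adjusted p = 0.394), and the MOE430v2 difference of 0.40 was 0.19 without either wild-type pool 2 or Foxa2 null pool 1 (adjusted p = 0.858 and 0.900). The related gene P4ha1, for another form of this subunit, stood at -0.0046 (95% interval -0.31 to 0.30).

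Bnip3, a mitochondrial protein that promotes removal of mitochondria by autophagy, read 7.22 and 7.75 against 8.02 and 8.24 on U74Av2 and 12.12 and 12.04 against 12.31 and 12.13 on MOE430v2. Both Foxa2 null pools were the higher on either platform, by a narrow margin on MOE430v2. The differences were 0.65 and 0.14, and the average was 0.40 (95% interval 0.13 to 0.66, adjusted p = 0.14 by limma).

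Vegfa, the endothelial growth factor that is a textbook target of hypoxia-inducible factor 1, lay on the other side of 0. It read 5.82 and 5.72 in wild-type against 5.75 and 5.46 in Foxa2 null pools on U74Av2, and 9.75 and 9.37 against 9.24 and 9.13 at the strongest MOE430v2 probe set. The differences were -0.17 and -0.37, neither past the threshold, with overlap on U74Av2, and the other MOE430v2 probe set stood at 0.03. Mxi1, an antagonist of Myc, read 5.97 and 6.29 against 5.88 and 5.73 on U74Av2 and 9.47 and 9.65 against 9.29 and 9.02 on MOE430v2. Its pools did not overlap at these probe sets, and the averaged difference was -0.36 (95% interval -0.77 to 0.04, adjusted p = 0.383 by limma), while its other MOE430v2 probe set stood at 0.18.

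Ddit4, an inhibitor of mTORC1, differed by 0.04 averaged over platforms, Ndrg1, a differentiation-linked stress gene, also by 0.04, and the mitochondrial adenylate kinase Ak4 by 0.10. Intervals ran from -0.25 to 0.32 for Ddit4, from -0.41 to 0.48 for Ndrg1 and from -0.18 to 0.38 for Ak4. The 5 MOE430v2 probe sets of Ndrg1 ranged from -0.33 to 0.62, the highest at a probe set that read 4.55 and 7.08 in the wild-type pools.

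The remaining hypoxia-induced genes were measured above the filter on MOE430v2 only. Egln3, an oxygen-dependent enzyme that targets hypoxia-inducible factors for breakdown and is itself induced by them, read 9.16 and 9.58 in wild-type and 9.71 and 9.95 in Foxa2 null pools. The pools did not overlap, and the difference was 0.46 (SE 0.20, adjusted p = 0.393 by limma), beside 0.17 at its other probe set. Car9, a carbonic anhydrase of the cell surface, read 7.07 and 6.53 against 7.35 and 6.17, with wide overlap and an interval from -1.23 to 1.16. Adm, the peptide adrenomedullin, had 2 probe sets that pointed in opposite directions: 6.24 and 5.30 against 6.83 and 6.80 at the stronger, and 6.43 and 5.86 against 5.67 and 5.59 at the weaker. Their differences were 1.05 and -0.51, and neither passed the threshold (adjusted p = 0.53 and 0.81). Bhlhe40, a transcriptional repressor, lay below the filter on both platforms. It read 1.63 and 0.49 against 4.72 and 3.52 on U74Av2 and 4.01 and 3.04 against 4.43 and 4.99 on MOE430v2, higher in both Foxa2 null pools each time but below the filter, and it was not called in a fit without the filter (adjusted p = 0.315 and 0.686).

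Hif1a, the oxygen-regulated subunit of hypoxia-inducible factor 1, showed no difference beyond the spread between pools. Averaged over platforms it read 11.03 and 11.01 in wild-type and 10.99 and 11.05 in Foxa2 null pools, a difference of -0.00056 with an interval from -0.22 to 0.22. The factor is controlled mainly through breakdown of its protein, which arrays do not measure.

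The genes around these steps were read from lists fixed by name. Among 29 other glycolysis and gluconeogenesis genes, 15 were tested on both platforms, with a median difference of -0.21 (10 below and 5 above 0), and 1 was called: Gapdhs, the testis form of glyceraldehyde-3-phosphate dehydrogenase. On MOE430v2 it read 4.35 and 4.94 in wild-type and 8.08 and 8.05 in Foxa2 null pools, and it rose by 3.42 (SE 0.55, adjusted p = 0.0392 by limma). Both wild-type values lay below the filter cut of 5.77, so Gapdhs entered the test through its Foxa2 null values. Without the filter the MOE430v2 call was lost (adjusted p = 0.110 by limma). On U74Av2 it read 4.83 and 5.21 against 4.90 and 5.34 with overlapping pools, so that the averaged rise of 1.76 (adjusted p = 0.0393) rests on MOE430v2, and it was lost without wild-type pool 1 or either Foxa2 null pool (adjusted p 0.0796 to 0.135). Pklr, the pyruvate kinase of liver and red cells, stood at -0.62 averaged, with overlap. Pck1, which starts gluconeogenesis and was tested on MOE430v2 only, stood at 0.88 (adjusted p = 0.611).

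Of 13 genes for pyruvate entry into mitochondria, 6 were tested on both platforms, and all 6 lay within 1.25-fold; 0 were called, and 0 had an unadjusted p under 0.05. Pdk4, another kinase of pyruvate dehydrogenase, was tested on U74Av2 only and read 2.58 and 4.18 against 5.00 and 4.79, a difference of 1.51 (adjusted p = 0.456 by limma). Its wild-type mean of 3.38 lay below the filter cut of 3.94, so Pdk4 entered the test through its Foxa2 null values. Pdp2, a phosphatase that reverses these kinases, stood at 0.63 on MOE430v2 (adjusted p = 0.407), and Mpc1, a subunit of the mitochondrial pyruvate carrier, at 0.42. Of 18 genes of the tricarboxylic acid cycle, which burns the acetyl group of pyruvate, 16 were tested on both platforms, with a median of 0.01. Sdhd, a membrane anchor of succinate dehydrogenase, read 10.15 and 10.21 against 9.51 and 9.43 on U74Av2 and 12.05 and 12.40 against 11.97 and 11.91 on MOE430v2. It was lower in both Foxa2 null pools on either platform and fell by 0.50 averaged (SE 0.11, adjusted p = 0.0448), a call that was lost without either wild-type pool or without Foxa2 null pool 2 (adjusted p 0.0517 to 0.217). Idh2 and Fh1, a dehydrogenase and a hydratase of the cycle, stood at -0.35 and -0.28 (adjusted p = 0.21 and 0.2). In the pentose phosphate pathway, which branches from glucose 6-phosphate, 0 of 9 tested genes were called and the median was 0.12. H6pd, Prps2 and Rpe lay farthest from 0 there, at 0.50, 0.42 and -0.33.

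Of 14 genes of oxygen sensing, 11 were tested on both platforms, with a median of -0.04, and Egln1, the main prolyl hydroxylase acting on Hif1a, was called. It read 7.31 and 7.09 in wild-type and 8.50 and 8.46 in Foxa2 null pools on U74Av2, and 9.92 and 9.63 against 11.12 and 10.86 on MOE430v2. Egln1 rose by 1.25 averaged (SE 0.14, adjusted p = 0.00553 by limma), also with each pool left out in turn. It lies on chromosome 8, whose genes had a median difference of 0.32 on U74Av2 (344 genes) and 0.35 on MOE430v2 (734 genes), and the part of this shift in the rise was not tested. None of the 34 members lies on chromosome 8. Ep300, a coactivator of hypoxia-inducible factors, stood at -0.87 on MOE430v2 (adjusted p = 0.104), and Rbx1, of the ubiquitin ligase that removes them, at 0.79 with overlap (adjusted p = 0.785).

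Among 38 other hypoxia-induced genes, 24 were tested on both platforms. Of these, 20 lay above 0 and 4 below, beside 2869 and 3064 of all 5933 genes, and the median was 0.09. By platform, 15 of 26 tested genes lay above 0 on U74Av2 and 18 of 31 on MOE430v2. In the averaged test by limma 0 were called. At an unadjusted p under 0.05, 4 were higher and 1 was lower, beside 7.43% and 7.84% of all genes. Angptl4, an inhibitor of lipoprotein lipase, read 6.55 and 6.05 against 5.93 and 5.59 on U74Av2 and 8.67 and 8.85 against 7.95 and 8.30 on MOE430v2. Its averaged difference was -0.59 (adjusted p = 0.173), the farthest below 0 in the list. Gbe1, the glycogen branching enzyme, stood at 0.57 and Flt1, a receptor of Vegfa, at 0.56, neither past the threshold. Edn1, the vasoconstrictor peptide endothelin, was tested on U74Av2 only and stood at -1.29 (adjusted p = 0.565). Its Foxa2 null mean of 3.76 lay below the filter cut of 3.94.

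**Figure D4:**
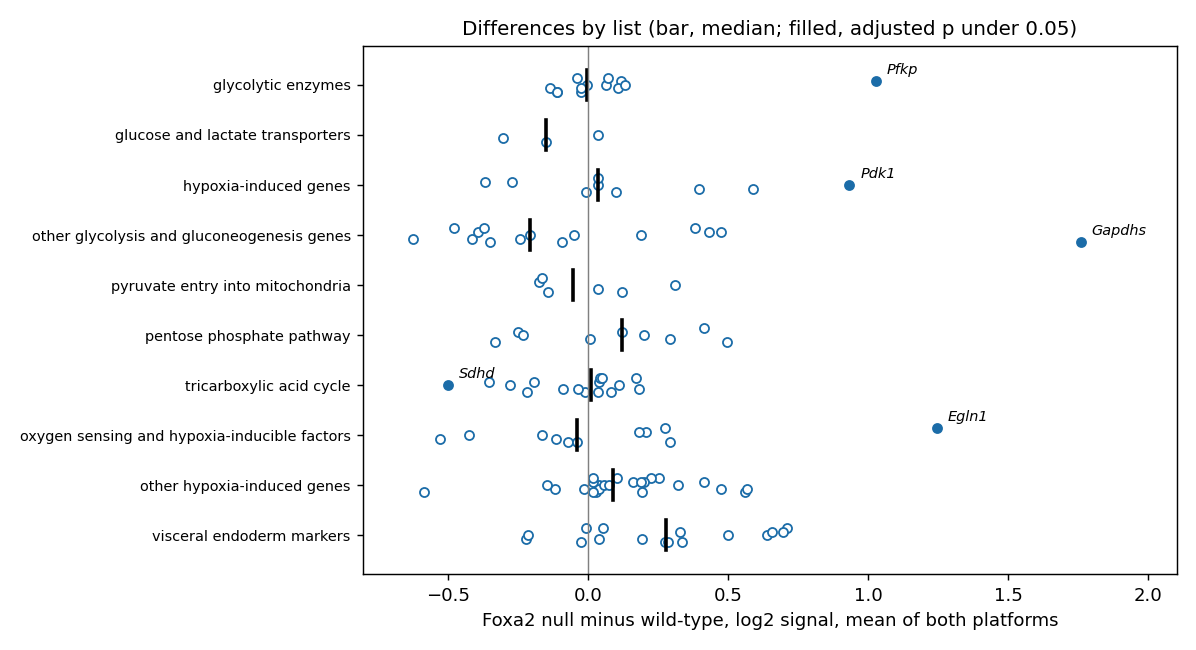
Difference in log2 signal, averaged over platforms (x axis), for each gene tested on both platforms (dots), by list (y axis); bars are list medians and filled, named dots passed an adjusted p under 0.05 over all 5933 genes. Called genes are single members of their lists (Pfkp, Pdk1, Gapdhs, Egln1 and Sdhd), and the visceral endoderm markers have the median farthest from 0, at 0.28.

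Markers of other tissues were read beside these genes. Of 16 visceral endoderm markers tested on both platforms, 12 lay above 0 and 4 below, and 0 were called. At an unadjusted p under 0.05, 7 were higher and 0 lower, beside 7.43% and 7.84% of all genes. The median of the 16 was 0.28, with Fgb, Mttp and Apob, products of this tissue, farthest up at 0.71, 0.70 and 0.66. Cited1 and Lrp2 lay farthest below 0, at -0.22 and -0.21. Afp stood at -0.48 on U74Av2 and at 0.43 on MOE430v2. Summed signal of the trophoblast and extra-embryonic ectoderm markers, of which 7 of 15 on U74Av2 and 9 on MOE430v2 were above the filter and 0 were listed at a signal of 0, was 1067 and 949 in wild-type and 1251 and 1385 in Foxa2 null pools on U74Av2. On MOE430v2 it was 6538 and 6624 against 8080 and 9263. These sums were higher in both Foxa2 null pools. Gene by gene, 3 of the 6 markers tested on both platforms lay above 0 and 3 below. Eomes, which is also a gene of the primitive streak, stood at 1.63, Tfap2c at 0.70 and Hand1 at 0.62 averaged. None of these passed the threshold (adjusted p = 0.108, 0.123 and 0.0501 by limma). Cdx2, Plac1 and Bmp4 stood at -0.29, -0.25 and -0.15. Ascl2, tested on U74Av2 only, stood at 0.82 (adjusted p = 0.684). Their part in the results for Pdk1 and Pfkp was not tested.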

How the data were processed

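RNA of 4 embryo pools was read on 8 Affymetrix arrays, and pools were grouped by the genotype in their labels. The deposited values are probe set signals, an intensity on a linear scale that the authors made in MAS 5.0. Each array had been scaled to a trimmed mean of 150 (U74Av2) or 500 (MOE430v2), with 2% cut at either end, whereas the methods name another target for U74Av2. Scaling sets arrays to a like mean, so differences are relative to it. With 2 pools per genotype, p-values measure the spread between these pools only. limma takes that spread in part from other genes of like signal. U74Av2 hybridizations fell on 2 days with both genotypes on each, but which pool numbers shared a day is not given, and MOE430v2 used 1 day. Present calls and single probes are not analysed here.

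Deposited signals were taken to log2 in R 4.3.3. U74Av2 stayed as scaled, and MOE430v2 was normalized by cyclic loess (limma 3.58.1), after the methods. Controls were dropped, then the 30% of probe sets lowest in mean log2 signal, leaving 8695 and 31526. Names came from a platform table, updated by gene identifier. limma with an intensity trend tested Foxa2 null against wild-type (two-sided, Benjamini-Hochberg over everything tested, adjusted p under 0.05). For the averaged comparison, the probe set with the highest mean signal stood for a gene on each platform, and both arrays of an extract were averaged. The steps were tested on simulated data.

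Named were every member, Foxa2, and from each other list the genes past the threshold and the 3 with the largest averaged difference, or the difference on 1 platform where only that one tested the gene. Further tissue markers were named to show both directions. Members and lists were chosen with earlier results of these data known. Alternatives were cyclic loess on U74Av2, MOE430v2 as scaled, quantile normalization, median centring, an offset of 16 before log2, no filter or one of 50%, no intensity trend, the replicate number as a block, the mean over a gene's probe sets, and each pool left out. Promoter windows are RefSeq sequences of GRCm38.p6.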

Additional observations from a re-analysis of the deposited data

How the results depend on the processing

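Counts on a platform are of member probe sets and averaged counts are of genes. Called were 0 lower and 0 higher on U74Av2, 0 and 1 on MOE430v2 and 0 and 2 averaged. Higher calls numbered 1 on U74Av2 and 1 averaged with median centring, 1 on U74Av2 and 3 on MOE430v2 (of Pdk1 and Pfkp) with the 50% filter, 0 on MOE430v2 and 0 averaged without the intensity trend, and 0 on MOE430v2 with the mean over probe sets. Without the trend limma called 0 probe sets on either platform and 2 genes averaged, none of them members. With each pool left out, higher calls ranged from 0 to 2 on MOE430v2 and from 1 to 3 averaged, and lower calls averaged from 0 to 1. The pool numbers of the labels shared only a number: same-numbered pools deviated together with a correlation of 0.111 on U74Av2 and 0.0851 on MOE430v2. With the replicate block, calls were 4 higher on U74Av2 (of Pdk1, Pfkp and P4ha2), 4 lower (of Slc2a1 and Slc16a1) and 4 higher (of Pdk1, Pfkp and Pgk1) on MOE430v2, and 1 lower and 4 higher averaged, while all calls averaged went from 143 to 502. The median over the members was 0.076 on U74Av2 with median centring, and with each pool left out it lay between 0.0072 and 0.045 on U74Av2, between 0.015 and 0.064 on MOE430v2 and between -0.0099 and 0.038 averaged. Pdk1 averaged passed in 13 of 14 alternatives (0.84 to 1.02), Pfkp in 11 (0.86 to 1.19), Egln1 in 13, Foxa2 in 10, Gapdhs in 6 of 13 and Sdhd in 6 of 14.

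Differences that changed sign were not called under the alternatives that turned them. With median centring these were Ldhb on U74Av2 at 0.034 and, averaged, Hif1a at 0.027, Pfkm at 0.028, P4ha1 at 0.025 and Pkm at 0.00028. With U74Av2 by cyclic loess they were Hif1a at 0.0063, Ldha at 0.0042, Pgk1 at 0.0028 and Pkm at 0.015. With quantile normalization they were Hif1a at 0.0043, Ldha at 0.026 and Pgk1 at 0.0094. With MOE430v2 as scaled they were Hif1a at 0.00058 and Pfkm at 0.0018, and with the mean over probe sets Aldoa at 0.033 and Pgk1 at 0.045. With each pool left out, the averaged difference ranged from -0.10 to 0.055 for Pgk1, from -0.079 to 0.075 for Pfkm, from -0.049 to 0.0038 for Pkm, from -0.35 to 0.084 for Aldoc and from -0.029 to 0.028 for Hif1a. It ranged from -0.10 to 0.18 for Slc2a3, from -0.17 to 0.24 for Ndrg1, from -0.11 to 0.19 for Ddit4, from -0.14 to 0.13 for P4ha1 and from -0.00041 to 0.21 for Ak4. On U74Av2 it ranged from -0.35 to 0.13 for Hk2, from -0.076 to 0.059 for Ldhb, from -0.0094 to 0.061 for Slc16a1 and from -0.12 to 0.32 for Gapdhs, and on MOE430v2 from -0.63 to 0.55 for Car9 and from -0.12 to 0.23 for Slc16a3. The cause was not tested.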

Other observations

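Markers of tissues not described above were read in the same way, averaged over platforms. Of 8 epiblast markers, 6 lay above 0, with Nanog at 0.82, Utf1 at 0.79 and Fgf5 at 0.62 farthest up. Nodal, Cdh1 and Pou5f1 stood at 0.25, 0.10 and 0.09, and the 2 below 0 were Sox2 at -0.39 and Epcam at -0.02. Of the 8, 0 were called by limma, with 2 higher and 1 lower at an unadjusted p under 0.05. Of 8 parietal endoderm markers 5 lay below 0, with Plat at -0.50 and Lama1 at -0.47, and Pth1r lay farthest above, at 0.20. Thbd, on MOE430v2 only, was at -1.40. Of the 8, 0 were called, with 3 lower at an unadjusted p under 0.05. Of 7 primitive blood markers 4 lay above 0, with Hba-x at 0.63, and Gfi1b lay farthest below, at -0.42. Klf1 and Hbb-y, on U74Av2 only, were at 0.93 and -0.91. Of the 7, 0 were called or had an unadjusted p under 0.05. Of 6 endothelial markers 3 lay above 0, with Pecam1 at 1.29, Flt1 at 0.56 and Kdr at 0.02. Tek, Cdh5 and Etv2 stood at -0.30, -0.13 and -0.10. Emcn, on MOE430v2 only, was at 1.06. By limma 0 of the 6 were called, and Flt1, not Pecam1, was the 1 higher at an unadjusted p under 0.05. Thbd, Hbb-y and Emcn passed the filter through 1 genotype, their mean in the other lying below the cut. On MOE430v2 the same held for Hba-x and Pecam1.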
